A study of Mus musculus with 6 samples.

Results

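The mitosis genes are 40 mouse genes of the cell division machinery: cyclins and Cdk1, the kinases, centromere and checkpoint proteins, motors and cytokinesis factors that a cell needs to separate its chromosomes and split. They were taken as a named list, each gene was represented by its brightest probe, and 38 of the 40 had a probe on the array that could be named through its accession, among 22051 genes tested in all. For Cenpf, a kinetochore protein, and Ncapg, a condensin subunit, no probe was matched here. The list was chosen by gene name and function, with earlier results of these arrays known, and not by a cut on the values. All 38 passed the filter on dim probes, 31 of them also through the ethanol channel alone. The other 7 (Cdc25c, Cenpe, Bub1, Ttk, Kif11, Kif2c and Hmmr) passed only through the cyclosporin A channel.

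The samples were back skin of C57/BL mice, taken 2, 4 or 7 days after the skin was treated with cyclosporin A or, as the control, with ethanol. Cyclosporin A is an immunosuppressive drug that binds cyclophilins and so inhibits the phosphatase calcineurin. Each of 6 two-colour arrays held 1 cyclosporin A sample in Cy5 and 1 ethanol sample of the same day in Cy3, with 2 arrays a day, and dyes were not swapped. The labels give no dose, age, sex or hair cycle stage and do not say whether a sample is 1 animal or a pool. The p-values therefore measure only the spread between these samples, and within a day treatment and any dye effect of a gene cannot be told apart. Values below are cyclosporin A over ethanol, as log2 ratios, unless a channel is named, so that a positive value is a higher level in cyclosporin A skin. Each day's mean is given with its standard error (SE) from a limma fit over the 6 arrays, and a gene is called where its Benjamini-Hochberg adjusted p, over all genes tested, is under 0.05.

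Median spot intensities were 134.5 to 187 in Cy5 and 203 to 277 in Cy3, and both were lowest on the first day 7 array. Negative control spots had median intensities of 66 to 81.5 in Cy5 and 117.5 to 198.5 in Cy3, against local backgrounds of 53 to 56 in Cy5 and 58 to 61 in Cy3. The first day 7 array stood apart from the others: it had 126 outlier spots, against 15 to 44 on the other 5 arrays, negative controls of 117.5 in Cy3, against 168.5 to 198.5, and the lowest shares of probes well above background, 59.95% in cyclosporin A and 43.58% in ethanol. The day 7 median of the list without it is given beside the day 7 counts. One slide carried days 2 and 4 and a second carried day 7, so that slide and day 7 cannot be told apart. The log2 ratios of the 2 day 2 arrays had a Pearson correlation of 0.0014 over all genes, against 0.4242 for the day 4 arrays and 0.5881 for the day 7 arrays. The genes that define skin epithelium were present: 8 of 8 keratinocyte markers, among them Krt5, Krt14, Krt1 and Krt10, passed the filter. Because whole skin was measured, more dividing cells and more RNA of these genes per cell cannot be told apart.

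Entry into mitosis is driven by Cdk1 bound to cyclin B, which the phosphatase Cdc25c switches on. Aurora and Polo-like kinases then build the spindle, the checkpoint proteins hold the cell until every kinetochore is attached, and the anaphase-promoting complex with Cdc20 releases the sister chromatids. In skin, dividing cells lie mainly in the basal epidermis and, while hair is growing, in the matrix at the base of the follicle. Many mitosis genes are transcribed late in the cell cycle through a promoter element called the cell cycle genes homology region (CHR), which MuvB complexes bind together with B-Myb and Foxm1 in dividing cells or with p130 and E2F4 (the DREAM complex) in resting cells. Nearby CCAAT boxes, bound by NF-Y, often accompany it.

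Promoters of 33 of the 40 genes are held by the RefSeq table used here (build GRCm38.p6), each with 250 bases before and 50 after the transcription start. Cdc25c, Tpx2, Ccna2, Incenp, Foxm1, Aurkb and Kif20a have no entry in it. The sequences below are those of the 4 genes with the highest day 7 ratio among called genes that have an entry, followed by that of Cenpe, which had the lowest ratio. They are written 5′ to 3′ on the gene's strand, with every CHR (TTTGAA or TTCGAA), every CCAAT box and every E2F motif (TTCCCGC, the variant with TTGGCGC, and the variant with TTCGCGC) on either strand in capitals, so that a CHR on the other strand reads TTCAAA and a CCAAT box on the other strand reads ATTGG.
Birc5 (chr11:117848987-117849286, plus strand): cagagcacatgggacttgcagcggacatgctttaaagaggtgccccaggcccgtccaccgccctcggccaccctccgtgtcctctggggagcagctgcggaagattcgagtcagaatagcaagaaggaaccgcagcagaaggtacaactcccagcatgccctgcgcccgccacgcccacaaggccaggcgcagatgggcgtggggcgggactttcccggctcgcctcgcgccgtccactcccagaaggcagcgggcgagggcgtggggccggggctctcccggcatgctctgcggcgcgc
Plk1 (chr7:122159185-122159484, plus strand): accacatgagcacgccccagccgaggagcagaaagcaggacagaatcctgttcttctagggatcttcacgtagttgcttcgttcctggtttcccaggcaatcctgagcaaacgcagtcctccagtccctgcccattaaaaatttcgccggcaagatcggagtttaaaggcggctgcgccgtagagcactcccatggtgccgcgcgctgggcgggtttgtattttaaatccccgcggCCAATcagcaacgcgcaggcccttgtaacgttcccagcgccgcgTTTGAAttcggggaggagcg
Kif22 (chr7:127042371-127042670, minus strand): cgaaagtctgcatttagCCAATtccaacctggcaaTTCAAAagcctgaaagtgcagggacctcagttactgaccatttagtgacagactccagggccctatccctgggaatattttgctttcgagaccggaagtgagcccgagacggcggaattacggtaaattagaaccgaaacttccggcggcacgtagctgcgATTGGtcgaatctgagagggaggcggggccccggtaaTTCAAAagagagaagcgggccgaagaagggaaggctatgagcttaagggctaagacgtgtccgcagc
Cdc20 (chr4:118437294-118437593, minus strand): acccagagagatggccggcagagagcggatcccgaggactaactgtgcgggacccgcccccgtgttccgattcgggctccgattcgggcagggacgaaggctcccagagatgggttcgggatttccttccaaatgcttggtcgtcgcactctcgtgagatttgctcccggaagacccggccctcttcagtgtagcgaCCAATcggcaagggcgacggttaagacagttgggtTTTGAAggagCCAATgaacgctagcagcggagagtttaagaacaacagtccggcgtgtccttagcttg
Cenpe (chr3:135212313-135212612, plus strand): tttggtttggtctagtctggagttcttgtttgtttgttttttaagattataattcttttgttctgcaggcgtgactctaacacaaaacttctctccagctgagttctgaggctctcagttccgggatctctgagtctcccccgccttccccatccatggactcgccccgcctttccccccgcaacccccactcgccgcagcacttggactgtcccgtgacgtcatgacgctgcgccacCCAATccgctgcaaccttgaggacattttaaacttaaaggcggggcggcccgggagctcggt

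The Birc5 promoter held none of the 3 motifs, although Birc5 had the highest day 7 ratio. Those of Plk1, Kif22 and Cdc20 held both a CHR and a CCAAT box, and that of Cenpe held a single CCAAT box and no CHR. Across the list, 25 of 33 promoters (75.8%) held a CHR, against 19.4% of the first promoters of all 27025 genes in the table. Counting only a CHR that starts between 60 bases before and 50 bases after the transcription start, 24 of 33 (72.7%) held one, against 5.86% of all genes. A CCAAT box was found in 25 of 33 (75.8%), against 37.9% of all genes, and 16 of 33 (48.5%) held at least 2, against 12.2%. An E2F motif was found in 5 of 33 (15.2%), against 8.21% of all genes. Among 64 promoters of further mitosis genes, set beside the list below, 64.1% held a CHR and 50% a CHR in that range. A CCAAT box was in 65.6% of these 64, at least 2 in 42.2%, and an E2F motif in 29.7%. None of the 3 motifs was found in the 300 bases of Birc5, Nuf2, Mad2l1, Pttg1 and Nusap1. A match of letters is a description of these windows, and a promoter without one says nothing of the factors that bind it.

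**Figure D1:**
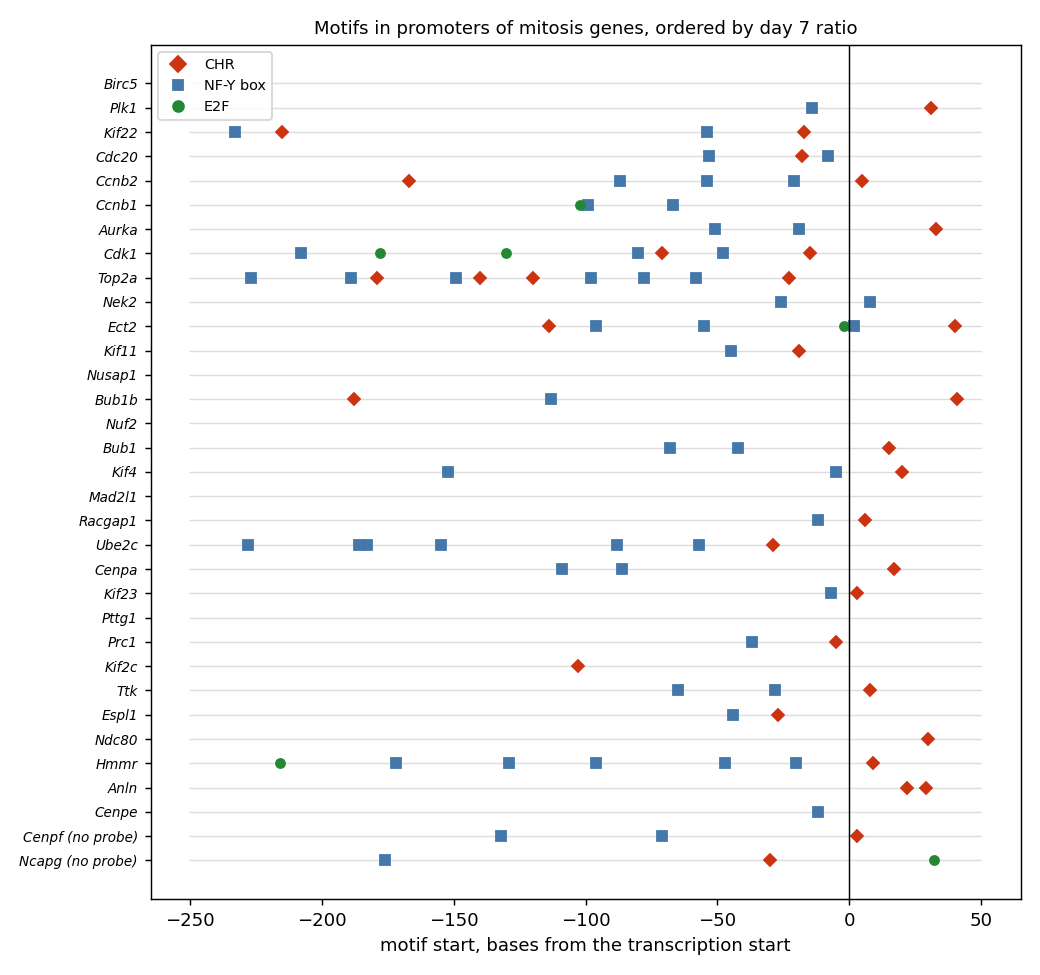
Start of each CHR (red diamonds), CCAAT box (NF-Y box, blue squares) and E2F motif (green circles) on either strand, in bases from the transcription start, in the first RefSeq promoter of 33 mitosis genes. Genes run from the highest day 7 ratio at the top (Birc5) to the lowest (Cenpe), followed by the 2 genes without a probe. Most CHRs lie within 60 bases before to 50 bases after the start, in 24 of 33 promoters.

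The CHR nearest the start is shown with up to 10 bases on each side for the 12 genes called at day 7 that held one, since the CHR near the start was the motif whose share in the list stood furthest above its share in all genes. All 12 also held a CCAAT box, which was found in 14 of the called genes. Each window is read on the strand on which the element, in capitals, is TTTGAA.
Plk1 (chr7:122159455-122159480, plus strand): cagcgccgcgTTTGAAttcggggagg
Kif22 (chr7:127042422-127042447, plus strand): gcttctctctTTTGAAttaccggggc
Cdc20 (chr4:118437346-118437371, minus strand): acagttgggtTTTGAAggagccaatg
Ccnb2 (chr9:70421535-70421560, minus strand): cggcgcggtaTTTGAAtcgcggaccg
Aurka (chr2:172370523-172370548, minus strand): aaggagaaccTTTGAAttgtaacggc
Cdk1 (chr10:69352912-69352937, minus strand): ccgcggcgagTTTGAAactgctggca
Top2a (chr11:99024197-99024222, plus strand): cctagtttcaTTTGAAcctttatcta
Ect2 (chr3:27153829-27153849, minus strand): actggattttTTTGAAtcgga
Kif11 (chr19:37376353-37376378, minus strand): gcgcctcaatTTTGAAaaatggagac
Bub1b (chr2:118598241-118598260, plus strand): agacgttaaaTTTGAAactt
Kif4 (chrX:100626074-100626099, plus strand): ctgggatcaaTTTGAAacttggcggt
Racgap1 (chr15:99651636-99651661, minus strand): ggtgcgtgatTTTGAAccggatctgg

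All 12 of these elements were TTTGAA and none was TTCGAA, while the flanking bases differed from gene to gene. The median day 7 ratio was 0.97 over the 23 measured genes with a CHR, against 1.14 over the 8 without one. Over genes with at least 2 CCAAT boxes the median day 7 ratio was 1.32 (15 genes), against 0.89 over the 16 with 1 or none. These medians are descriptions of chosen genes and were not tested.

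At day 7 the mitosis genes were higher in cyclosporin A skin as a group. Of the 38, 21 were called higher and 0 lower, where 2.38% of all genes tested were called higher and 0.653% lower (3.03% in either direction). All 38 mean ratios were above 0, beside 11932 of all 22051 genes, and their median was 1.09 against 0.03 over all genes. An unadjusted p under 0.05 was found for 35 of the 38, beside 4873 of all 22051 genes. Both day 7 arrays were above 0 for all 38 genes, which holds for 38.2% of all genes. These counts include the 7 genes that passed the filter only through cyclosporin A, where the filter itself favours a higher ratio. A stricter filter, which left these 7 out, asked for a clear signal from cyclosporin A and from ethanol alike on each array. Of the 25 genes it kept, 25 had a day 7 mean above 0, with a median of 1.32. The shares over all genes given above belong to the main filter and not to this one. Many calls were lost when 1 day 7 array was left out. No gene kept its call in every fit that left out 1 array. Without the second day 7 array all 38 ratios stayed above 0 with a median of 0.83, and without the first their median was 1.38. Many were also lost without either one of the day 4 arrays, which bear on day 7 only through the shared estimate of the spread. On the scanner software's processed signals 7 were called (0.916% of all genes), and with the deposited ratios 13 (1.27%). When each array was centred on its median in place of loess, 31 were called (22.3% of all genes), and among the 38 only Cenpe turned below 0.

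**Figure D2:**
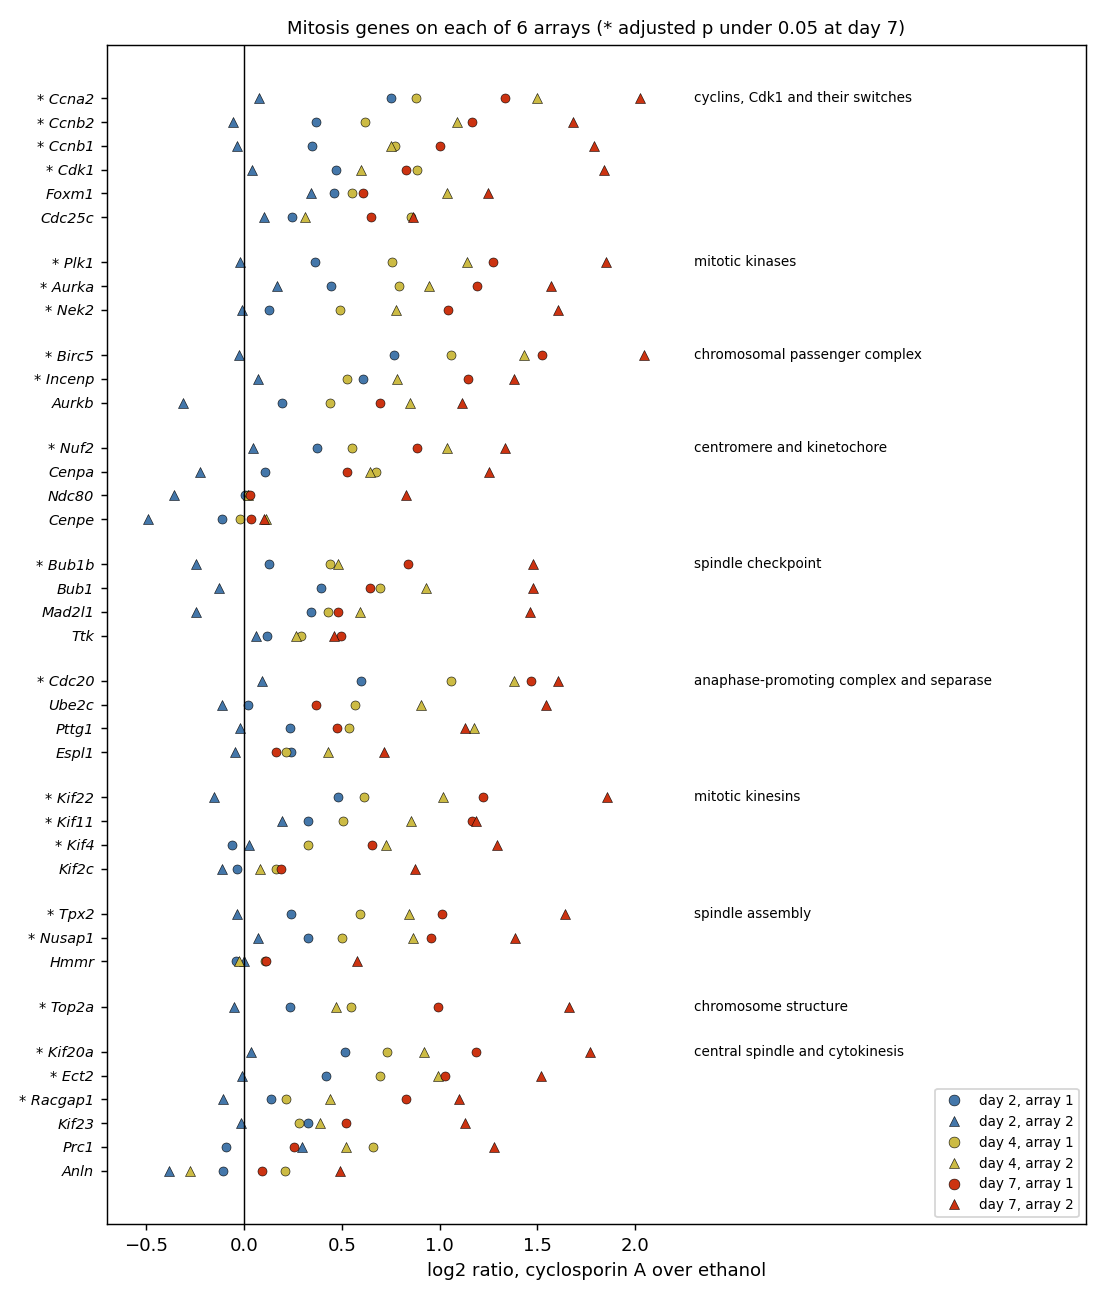
Log2 ratio of cyclosporin A over ethanol (horizontal axis) of 38 mitosis genes, grouped by role, on each of the 6 arrays; colours mark the day and shapes the array of that day, and an asterisk marks an adjusted p under 0.05 at day 7. Day 7 points lie to the right of the line at 0 for all 38 genes, and the second day 7 array lies above the first for 37 of them.

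Of the group of cyclins, Cdk1, Cdc25c and Foxm1, 4 of 6 genes were called higher in cyclosporin A skin at day 7. The share called higher over all genes, 2.38%, stands beside this and each group count below. Ccna2, cyclin A2, which acts in S phase and at entry into mitosis, had ratios of 0.75 and 0.08 on the day 2 arrays, 0.88 and 1.50 on the day 4 arrays and 1.33 and 2.02 on the day 7 arrays. Its cyclosporin A over ethanol mean at day 7 was 1.68 ± 0.24 (SE, n = 2 arrays), or 3.20-fold, with an adjusted p of 0.0229. The first day 7 array lay below the second day 4 array, so that these days overlapped. Ccnb1, the cyclin B1 partner of Cdk1, had ratios of 0.35 and -0.04 on the day 2 arrays, 0.77 and 0.75 on the day 4 arrays and 1.00 and 1.79 on the day 7 arrays, and its day 7 mean was 1.39 ± 0.20 (adjusted p = 0.0219). Its other probes, both dimmer, gave day 7 means of 0.93 and 1.19. Ccnb2, the second B-type cyclin, had 0.37 and -0.06 on the day 2 arrays, 0.62 and 1.09 on the day 4 arrays and 1.16 and 1.68 on the day 7 arrays, with a day 7 mean of 1.42 ± 0.19 (adjusted p = 0.0185). For both B cyclins every day 7 value lay above every day 4 value, and every day 4 value above every day 2 value. Cdk1, the kinase itself, had 0.47 and 0.04 on the day 2 arrays, 0.88 and 0.60 on the day 4 arrays and 0.83 and 1.84 on the day 7 arrays, with a day 7 mean of 1.33 ± 0.24 (adjusted p = 0.0426). Its first day 7 array was lower than its first day 4 array, and its dimmer second probe, not well above background on any array, gave 0.35 at day 7. Foxm1, a transcription factor of mitosis genes, and Cdc25c were not called, with day 7 means of 0.93 ± 0.19 (adjusted p = 0.0558) and 0.76 ± 0.16 (adjusted p = 0.0582).

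Plk1, Aurka and Nek2, kinases of centrosomes and the spindle, were called higher at day 7. Aurkb, Bub1 and Ttk, kinases of the passenger complex and the checkpoint, were just short of a call (adjusted p = 0.0548, 0.0591 and 0.0694). The kinases were not tested against each other. Plk1, the Polo-like kinase that acts from mitotic entry to cytokinesis, had ratios of 0.36 and -0.02 on the day 2 arrays, 0.75 and 1.14 on the day 4 arrays and 1.27 and 1.85 on the day 7 arrays. Both day 7 arrays were above both day 4 arrays, which were above both day 2 arrays, and the day 7 mean was 1.56 ± 0.19, or 2.95-fold (adjusted p = 0.0150). Aurka, the kinase of spindle poles, had 0.45 and 0.17 on the day 2 arrays, 0.79 and 0.95 on the day 4 arrays and 1.19 and 1.57 on the day 7 arrays, with a day 7 mean of 1.38 ± 0.14 (adjusted p = 0.00858). Nek2, which separates centrosomes, had 0.13 and -0.01 on the day 2 arrays, 0.49 and 0.78 on the day 4 arrays and 1.04 and 1.60 on the day 7 arrays, with a day 7 mean of 1.32 ± 0.16 (adjusted p = 0.0160). The order of days was the same in all 3, without overlap. These 3 genes stayed called in 5 of the 6 fits that left out 1 array each, the exception being the fit without the second day 7 array.

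Of the chromosomal passenger complex, which corrects kinetochore attachments and later directs cytokinesis, 2 of 3 genes were called higher at day 7. Birc5, survivin, had the highest day 7 ratio of the list, with 0.77 and -0.03 on the day 2 arrays, 1.06 and 1.43 on the day 4 arrays and 1.53 and 2.04 on the day 7 arrays. Its level in the cyclosporin A channel at day 7 was 12.67 and 13.22 on the log2 intensity scale, against 11.14 and 11.17 in the ethanol channel. At day 2 the corresponding log2 intensities were 11.47 and 10.65 in cyclosporin A and 10.70 and 10.68 in ethanol. The day 7 mean ratio was 1.78 ± 0.22, or 3.44-fold (adjusted p = 0.0163), and no day overlapped another. Incenp, the scaffold of the complex, had 0.61 and 0.07 on the day 2 arrays, 0.53 and 0.78 on the day 4 arrays and 1.15 and 1.38 on the day 7 arrays, with a day 7 mean of 1.26 ± 0.16 (adjusted p = 0.0173). Its first day 2 array lay above its first day 4 array. Aurkb, the kinase of the complex, was not called, with a day 7 mean of 0.90 ± 0.18 (adjusted p = 0.0548) and ratios of 0.70 and 1.11 on the day 7 arrays.

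Among centromere and kinetochore genes 1 of 4 measured was called higher at day 7. Nuf2, a subunit of the Ndc80 complex that holds microtubules, had 0.37 and 0.05 on the day 2 arrays, 0.55 and 1.04 on the day 4 arrays and 0.88 and 1.33 on the day 7 arrays, with a day 7 mean of 1.11 ± 0.18 (adjusted p = 0.0306). The first day 7 array of Nuf2 lay below its second day 4 array. Its partner Ndc80 had ratios of 0.03 and 0.83 at day 7, a mean of 0.43 ± 0.20, and was not called (adjusted p = 0.262). The Ndc80 ethanol signal was not well above background on either day 7 array, and no fold is given. Cenpa, the centromeric histone, had a day 7 mean of 0.89 ± 0.19 (adjusted p = 0.0602). Cenpe, a kinetochore motor, had the lowest day 7 ratio of the list on its brightest probe, with -0.11 and -0.49 on the day 2 arrays, -0.02 and 0.11 on the day 4 arrays and 0.04 and 0.10 on the day 7 arrays. Its log2 intensities at day 7 were 7.17 and 7.13 in cyclosporin A and 7.13 and 7.03 in ethanol, and the channels overlapped. Its mean at day 7 was 0.07 ± 0.13 (adjusted p = 0.784). The Cenpe ethanol signal was not well above background on any array, and no fold is given. A second probe of Cenpe, nearly as bright, gave 0.31 at day 7, above the mean of Anln, and the processed signals and deposited ratios each gave 0.93 for Cenpe.

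Of the spindle checkpoint 1 of 4 genes was called higher at day 7. Bub1b, the checkpoint protein BubR1, had 0.13 and -0.24 on the day 2 arrays, 0.44 and 0.48 on the day 4 arrays and 0.84 and 1.47 on the day 7 arrays, with a day 7 mean of 1.16 ± 0.18 (adjusted p = 0.0266). The days did not overlap for this gene, but its ethanol signal was well above background on only 1 of the day 7 arrays. Bub1, a checkpoint kinase, had ratios of 0.65 and 1.48 at day 7 and a mean of 1.06 ± 0.22 (adjusted p = 0.0591), and Mad2l1, which blocks Cdc20, had 0.48 and 1.46 and a mean of 0.97 ± 0.25 (adjusted p = 0.0942). In both, the second day 7 array was far above the first, and ethanol was well above background on only 1 of these arrays. Ttk, the kinase Mps1, had a day 7 mean of 0.48 ± 0.11 (adjusted p = 0.0694), with no fold given because ethanol was not well above background.

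Of the genes that start anaphase 1 of 4 was called higher at day 7. Cdc20, the activator of the anaphase-promoting complex, had 0.60 and 0.09 on the day 2 arrays, 1.06 and 1.38 on the day 4 arrays and 1.47 and 1.60 on the day 7 arrays. Its log2 intensities at day 7 were 12.91 and 12.98 in cyclosporin A and 11.44 and 11.38 in ethanol, and no value of one channel reached the other. Its day 7 mean was 1.53 ± 0.16, or 2.90-fold (adjusted p = 0.00876). Ube2c, the ubiquitin-conjugating enzyme of the complex, had 0.37 and 1.54 on the day 7 arrays, and its mean of 0.96 ± 0.26 was not called (adjusted p = 0.107). Pttg1, securin, had a day 7 mean of 0.80 ± 0.21 (adjusted p = 0.100), and Espl1, the separase it inhibits, had 0.44 ± 0.16 (adjusted p = 0.186).

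The mitotic motors Kif22, Kif11 and Kif4 were called higher at day 7, and Kif2c was not called. Kif22, a chromosome-arm kinesin, had 0.48 and -0.15 on the day 2 arrays, 0.62 and 1.02 on the day 4 arrays and 1.22 and 1.86 on the day 7 arrays, with a day 7 mean of 1.54 ± 0.22 (adjusted p = 0.0215). Its day 7 values lay above all others. Kif11, the kinesin that pushes spindle poles apart, had 0.33 and 0.20 on the day 2 arrays, 0.51 and 0.85 on the day 4 arrays and 1.16 and 1.18 on the day 7 arrays, with a day 7 mean of 1.17 ± 0.13 (adjusted p = 0.0105). Its 2 day 7 arrays were close to each other, but ethanol was well above background on only 1 of them, and a dimmer second probe, not well above background on any array, gave -0.01 at day 7. Kif4, a chromosome-bound kinesin, had -0.06 and 0.02 on the day 2 arrays, 0.33 and 0.73 on the day 4 arrays and 0.65 and 1.29 on the day 7 arrays, with a day 7 mean of 0.97 ± 0.18 (adjusted p = 0.0446). Kif4 lost its call in each of the 6 fits without 1 array. Kif2c, which takes microtubules apart at centromeres, had 0.19 and 0.87 at day 7, a mean of 0.53 ± 0.17 (adjusted p = 0.145).

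Tpx2 and Nusap1, both microtubule-binding proteins of the spindle, were called higher at day 7, and so was Top2a, the topoisomerase that untangles chromosomes. Tpx2, which activates Aurora A, had 0.24 and -0.04 on the day 2 arrays, 0.59 and 0.84 on the day 4 arrays and 1.01 and 1.64 on the day 7 arrays, with a day 7 mean of 1.33 ± 0.18 (adjusted p = 0.0183). Nusap1 had 0.33 and 0.07 on the day 2 arrays, 0.50 and 0.86 on the day 4 arrays and 0.96 and 1.38 on the day 7 arrays, with a day 7 mean of 1.17 ± 0.16 (adjusted p = 0.0195). The days did not overlap in either gene. Top2a had 0.24 and -0.05 on the day 2 arrays, 0.55 and 0.47 on the day 4 arrays and 0.99 and 1.66 on the day 7 arrays, with a day 7 mean of 1.33 ± 0.18 (adjusted p = 0.0183). A dimmer second probe of Top2a gave 0.16 at day 7, and Top2a lost its call where the probes of a gene were averaged (adjusted p = 0.0616). Hmmr, a spindle protein and hyaluronan receptor, was among the 3 lowest genes, with -0.04 and 0.00 on the day 2 arrays, 0.11 and -0.03 on the day 4 arrays and 0.11 and 0.58 on the day 7 arrays. Its day 7 mean was 0.35 ± 0.14 (adjusted p = 0.215) on the loess-normalized values. No fold is given, since ethanol was not well above background on any array. Hmmr moved with the processing: its day 7 mean was 1.40 on the processed signals and 1.40 with the deposited ratios, near the list median of 1.37 there, and 0.19 with median centring.

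Of the central spindle and cytokinesis genes 3 of 6 were called higher at day 7. Kif20a, a kinesin of the central spindle, had 0.52 and 0.04 on the day 2 arrays, 0.73 and 0.92 on the day 4 arrays and 1.19 and 1.77 on the day 7 arrays, with a day 7 mean of 1.48 ± 0.18 (adjusted p = 0.0163). Ect2, the exchange factor that activates RhoA at the cleavage furrow, had 0.42 and -0.01 on the day 2 arrays, 0.70 and 0.99 on the day 4 arrays and 1.03 and 1.52 on the day 7 arrays, with a day 7 mean of 1.27 ± 0.17 (adjusted p = 0.0199). Racgap1, which together with Kif23 forms centralspindlin and recruits Ect2, had 0.14 and -0.11 on the day 2 arrays, 0.21 and 0.44 on the day 4 arrays and 0.83 and 1.10 on the day 7 arrays, with a day 7 mean of 0.96 ± 0.13 (adjusted p = 0.0213). In these 3 genes the day 7 arrays lay above the day 4 arrays, by a small margin for Ect2. Kif23 had a day 7 mean of 0.83 ± 0.17 (adjusted p = 0.0598), and Prc1, which bundles central spindle microtubules, had 0.26 and 1.28 on the day 7 arrays, a mean of 0.77 ± 0.24 (adjusted p = 0.135). Anln, anillin, a scaffold of the contractile ring, was also among the 3 lowest, with -0.11 and -0.38 on the day 2 arrays, 0.21 and -0.28 on the day 4 arrays and 0.09 and 0.49 on the day 7 arrays. Its day 7 mean was 0.29 ± 0.17 (adjusted p = 0.351), and the days overlapped. On the processed signals and with the deposited ratios it was 0.92 each.

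At day 4 the median ratio of the list was smaller, and 0 of 38 were called by limma, where 0.00453% of all genes (1 gene, the inner root sheath keratin Krt71) were called. The median ratio was 0.67 against 0.04 over all genes, and 37 of 38 mean ratios were above 0, beside 12581 of all 22051. An unadjusted p under 0.05 was found for 30 of the 38, beside 3249 of all 22051 genes. The highest day 4 means were those of Birc5 (1.24 ± 0.22), Cdc20 (1.22 ± 0.16) and Ccna2 (1.19 ± 0.24, SE, n = 2 arrays each), each with an adjusted p of 0.183. Both day 4 arrays were above 0 for 35 of 38 genes, which holds for 38.8% of all genes. Anln had the lowest day 4 mean, at -0.03 ± 0.17.

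At day 2 the arrays differed from each other, and 0 of 38 genes were called, as were 0% of all genes. The median of the mean ratios was 0.12 against 0.04 over all genes, and 28 of 38 were above 0, beside 12715 of all 22051. Of the 38, 0 had an unadjusted p under 0.05, beside 2113 of all 22051 genes. On the first day 2 array the median over the list was 0.29, with 32 of 38 genes above 0, and on the second it was -0.02, with 14 of 38 above 0. Both day 2 arrays were above 0 for 12 genes, which holds for 33.1% of all genes, and both were below 0 for 4. With arrays centred on their median, 12 of 38 genes were called at day 2, 11 higher and 1 lower, where 39.1% of all genes were called, a larger share than in the list. At day 4 that scaling called 22 of 38, where 25% of all genes were called. That scaling moved the median of all genes to 0.40 at day 2, 0.28 at day 4 and 0.17 at day 7, beside list medians of 0.38, 0.93 and 1.32, so that at day 2 the list did not lie above all genes.

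Array by array, most of the genes had higher ratios on later days. The median over the list was 0.55 and 0.78 on the day 4 arrays and 0.83 and 1.38 on the day 7 arrays. Both day 7 arrays were above both day 2 arrays for 36 of 38 genes, beside 18.6% of all genes, and the exceptions were Prc1 and Espl1. Both day 7 arrays were above both day 4 arrays for 22 genes, which holds for 18% of all genes, and both day 4 arrays above both day 2 arrays for 33, which holds for 16.9%. The tests of the differences between days did not call any of the 38. For day 7 minus day 2, 0 were called, where 0.254% of all genes were, and the median difference was 0.96. An unadjusted p under 0.05 was found for 30, beside 1357 of all 22051 genes. For day 4 minus day 2, 0 were called, as were 0% of all genes, with a median difference of 0.53. There 11 had an unadjusted p under 0.05, beside 486 of all 22051 genes. For day 7 minus day 4, 0 were called, where 0.186% of all genes were, with a median difference of 0.45. There 9 had an unadjusted p under 0.05, beside 988 of all 22051 genes. The largest differences between days 7 and 2 were those of Birc5 (1.41, adjusted p = 0.342) and Plk1 (1.39, adjusted p = 0.220). The 3 day contrasts share arrays and are not independent of each other.

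Levels were also compared over days within each channel. In the cyclosporin A channel, 13 of 38 genes were called higher at day 7 than at day 2, where 0.862% of all genes were. The median difference over the list was 1.27 in log2 intensity. All 38 differences were above 0, beside 10209 of all 22051 genes. An unadjusted p under 0.05 was found for 34, beside 3064 of all 22051 genes. In the ethanol channel 0 of 38 were called, where 0.0317% of all genes were called higher, and the median difference was 0.32. There 34 of 38 differences were above 0, beside 10896 of all 22051 genes. An unadjusted p under 0.05 was found for 16, beside 2488 of all 22051 genes. The difference between the channels is the day 7 minus day 2 contrast of the ratios above, for which 0 genes were called. The 13 genes called higher at day 7 in cyclosporin A were Ccna2, Ccnb2, Plk1, Aurka, Nek2, Birc5, Cdc20, Kif22, Tpx2, Nusap1, Kif20a, Ect2 and Racgap1. Ccna2 had the largest day 7 minus day 2 difference in cyclosporin A, at 2.18 (SE 0.31, adjusted p = 0.0275), against 0.91 in ethanol (adjusted p = 0.172). The summed intensity of the 38 probes in cyclosporin A was 28544 and 18609 at day 2, 41750 and 45189 at day 4, and 57682 and 80980 at day 7. In ethanol the summed intensities were 21405 and 18522 at day 2, 25979 and 23099 at day 4, and 27190 and 27387 at day 7. At day 7 both cyclosporin A sums were above both ethanol sums, while at day 2 the channels overlapped. Without the second day 2 array 0 genes were called in the cyclosporin A channel, without the second day 7 array 5, and with the replicate number as a block 0. Single channels were compared across slides, so that day 7 and its slide cannot be told apart here either.

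**Figure D3:**
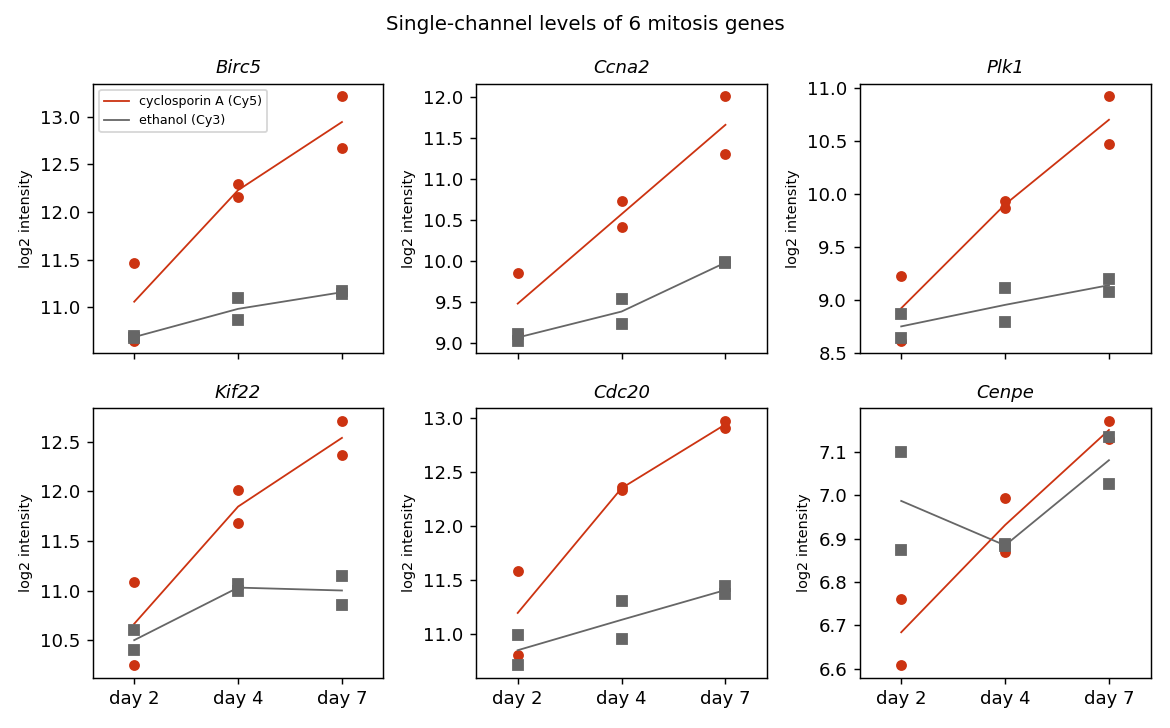
Log2 intensity (vertical axis, scaled per gene) of the 5 mitosis genes with the highest day 7 ratio and of Cenpe, the lowest, in cyclosporin A skin (red circles, Cy5) and ethanol skin (grey squares, Cy3) by day; points are arrays and lines join the means. In the first 5 genes the cyclosporin A points of day 7 stand above every ethanol point, while for Cenpe the channels overlap within a narrow range at day 7.

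Other genes of the cell cycle were set beside the list. Over all genes tested, 2.38% were called higher at day 7 and 0.653% lower, with a median of 0.03. Of 75 further mitosis genes (other kinetochore, condensin, kinesin and regulator genes) 61 were measured. At day 7, 27 of these 61 were called higher and 0 lower, with a median of 0.78. The 3 with the largest ratios were Pbk, a mitotic kinase (1.81, adjusted p = 0.0214), Cdca5, sororin, which protects cohesion (1.66, adjusted p = 0.0153), and Sgo1, shugoshin, which guards centromeric cohesin (1.64, adjusted p = 0.00918). Of 47 genes of DNA replication and S phase 43 were measured. At day 7, 22 of these 43 were called higher and 0 lower, with a median of 0.85. Uhrf1, which keeps DNA methylation through replication, had 1.41 (adjusted p = 0.0483), Tk1, thymidine kinase, 1.29 (adjusted p = 0.0351), and Mcm2, of the replicative helicase, 1.28 (adjusted p = 0.0443). Of 28 genes of G1 cyclins, Cdk inhibitors and the DREAM complex 25 were measured. At day 7, 3 of these 25 were called higher and 0 lower, with a median of 0.16. Those 3 were Mybl2, which encodes B-Myb (0.90, adjusted p = 0.0219), Rbl1, which encodes p107 (0.73, adjusted p = 0.0353), and Ccnd2, cyclin D2 (0.57, adjusted p = 0.0486). These lists were, like the first, chosen with results known, and their medians were not tested against each other.

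**Figure D4:**
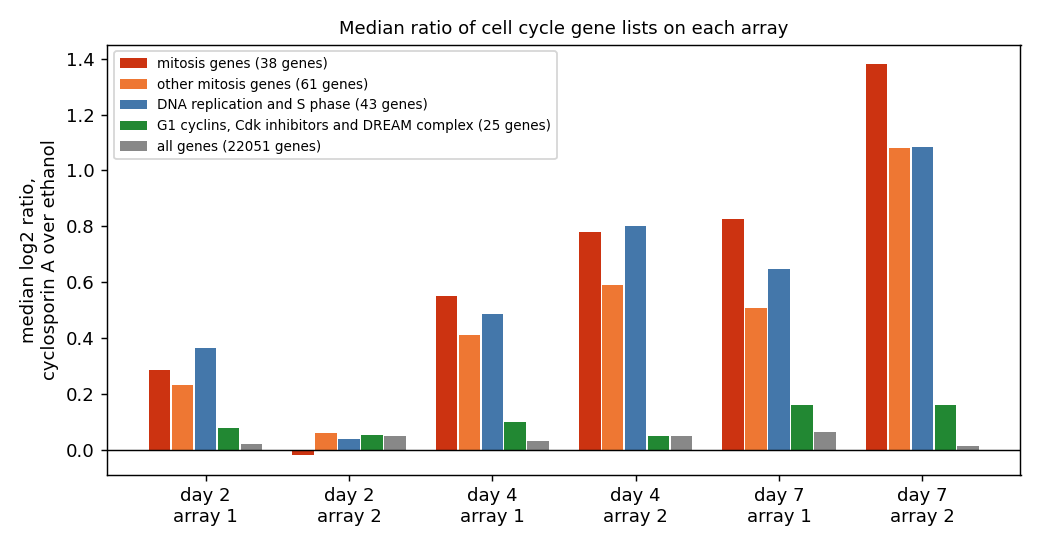
Median log2 ratio of cyclosporin A over ethanol (vertical axis) of 4 cell cycle gene lists and of all genes tested on each of the 6 arrays. The mitosis genes have medians of 0.29 and -0.02 on the day 2 arrays and 0.83 and 1.38 on the day 7 arrays, the S phase genes move with them, and the G1, inhibitor and DREAM list is at most 0.16.

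The median ratio of markers of the growing hair follicle was higher on later days, as was that of the mitosis genes. Of 10 markers of hair matrix and growing follicle 9 were measured, with a day 7 median of 1.81. At day 7, 8 were called higher, where 2.38% of all genes tested were, with Foxn1 as the exception (-0.24, adjusted p = 0.617). Dlx3 was below 0 at day 2 (-0.22) and day 4 (-0.17). The largest day 7 ratios were those of the keratins Krt71 (6.18), Krt27 (5.72) and Krt35 (3.99). The median of the 9 markers was 0.32 and 0.21 on the day 2 arrays, 0.78 and 0.94 on the day 4 arrays, and 1.38 and 2.24 on the day 7 arrays. Their summed intensity at day 7 was 192702 and 150425 in cyclosporin A, against 4785 and 4278 in ethanol. At day 2 it was 1670 and 1377 in cyclosporin A, against 1267 and 1212 in ethanol. Of 8 keratinocyte markers 0 were called at day 7 (0 at an unadjusted p under 0.05), with a median of -0.16, and their summed intensity was 512380 and 344736 in cyclosporin A, against 435952 and 542064 in ethanol. Of the T cell markers 6 of 8 were measured and 0 were called (2 at an unadjusted p under 0.05), with a median of -0.30 and summed intensities of 2869 and 2196 in cyclosporin A, against 3022 and 3022 in ethanol. Of the macrophage and dendritic cell markers 6 of 8 were measured and 0 were called (1 at an unadjusted p under 0.05), with a median of -0.22 and summed intensities of 112568 and 99836 in cyclosporin A, against 149130 and 159667 in ethanol. The follicle markers Hoxc13 and Shh were not well above background in ethanol on any array. The part of these cell types in the mitosis ratios was not tested.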

How the data were processed

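The authors deposited a scanner file for every array and a table of log10 ratios of Cy5 over Cy3. The submitters' processing notes name Agilent Feature Extraction 9.1. Per the file headers, the deposited files give spot intensity and background for both dyes, and signals that the software had corrected for background and dye. The log10 table equalled the scanner ratio column (largest difference 0).

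Here, median intensities of 45018 spots (1639 controls) went through normexp (offset 50) and then loess within arrays in limma 3.58.1 (R 4.3.3, with version 1.17.8 of data.table). Outlier spots were dropped, and spots were averaged into 41174 probes. A probe was kept if, on each array of some day, at least 1 channel was well above background (27947). Of all 41174 probes, 22951 were named by accession and 67 by synonym through RefSeq, and 18156 had no name. The brightest probe stood for a gene, leaving 22051 genes, of which 13480 had a symbol. One mean per day was fitted over 6 arrays. Single channels were scaled by Aquantile. The fit was tested on simulated data. Arrays give no read depth, and their number (2 a day) limits precision. Replicate numbers came from the titles, since every description reads replicate 1 of 2. Samples with the same number did not deviate together (correlations of 0.00, -0.28 and -0.02), and no pairing was used.

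The mitosis genes, the other lists, the tests and the alternatives were chosen with earlier results of these data known. Values on every array were given for each gene called at any day and for the 3 lowest at day 7, and 3 called genes were named from each further list.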

Additional observations from a re-analysis of the deposited data

How the results depend on the processing

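All values are for the 38 measured mitosis genes. The count of 21 genes called at day 7 was 7 on the scanner software's processed signals and 13 with the deposited log ratios. The other alternatives gave 17 to 31, and every measured day 7 ratio stayed above 0 except that of Cenpe, which was -0.12 at day 7 with median centring. With median centring 12 genes were called at day 2, beside 8615 of all 22050 genes, and 22 at day 4, beside 5516 of 22051, and the list medians were 0.38 at day 2 and 0.93 at day 4. The 3 lowest day 7 ratios were higher on the processed signals, at 0.93 for Cenpe, 0.92 for Anln and 1.40 for Hmmr, as was that of Kif11, at 2.22. The day 4 median was 0.86 on the processed signals and 0.86 with the deposited ratios. With the replicate number as a block, which the arrays' deviations gave no ground for, 18 were called at day 7 and 0 in the cyclosporin A channel for day 7 minus day 2, against 13 without the block. Leaving out 1 array at a time gave 0 to 21 called genes at day 7 and list medians of 0.83 to 1.38. It gave 0 called genes at days 2 and 4, with medians of -0.02 to 0.29 at day 2 and 0.55 to 0.78 at day 4. In the cyclosporin A channel these fits gave 0 to 12 genes, and in the ethanol channel 0. Where 1 array of a day was left out, the remaining one was assumed to vary like those of the other days. Differences between days gave 0 called genes under every alternative run. The count over all genes at day 7, 669, was 202 on processed signals, 279 with deposited ratios, 307 with scale normalization, 321 with the block and 4908 with median centring. The negative-control background, added after the data were seen, gave 22 genes at day 7. The causes of these shifts were not tested. With 2 arrays a day, no dye swap and day 7 on a slide of its own, the number of arrays limits every ratio, and dim probes in ethanol (Ttk, Hmmr and Cenpe on 6 arrays) limit their ratios.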

Other observations

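Genes of other marker lists of skin were also called at day 7, where 2.38% of all genes tested were called higher and 0.653% lower. Of 6 melanocyte markers 4 were measured, with Mitf at -0.17 (adjusted p = 0.675). Called higher were the melanosome protein gene Pmel (2.74, adjusted p = 0.00431) and the melanin synthesis genes Dct (2.37, adjusted p = 0.0150) and Tyrp1 (2.01, adjusted p = 0.00825). Of 6 skeletal muscle markers 2 were called lower, Ttn (titin, -1.41, adjusted p = 0.0172) and Des (desmin, -0.88, adjusted p = 0.0270), and all 6 mean ratios were below 0. None of 6 fibroblast, 5 endothelial, 5 adipocyte and 2 measured red blood cell markers was called at day 7, with medians of -0.06, -0.08, 0.31 and 0.43. At an unadjusted p under 0.05 these 4 lists held 0, 1, 1 and 0 genes.

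The second probe of a gene differed from the brightest one for Ect2 (0.26 at day 7, not well above background in ethanol on any array, against 1.27) and Cdc25c (0.07 against 0.76). Racgap1 (0.65 against 0.96), Kif23 (0.75 against 0.83) and Kif4 (0.68 against 0.97) had dimmer probes of the same sign. Plk1, Aurka, Nek2, Cdc20, Kif20a, Tpx2 and Kif11 were the 7 genes called at day 7 on the scanner software's processed signals. The 21 genes called at day 7 had ratios of 1.10 to 2.04 without the first day 7 array and 0.65 to 1.53 without the second. Each of the 21 lost its call in at least 1 of the fits that left out 1 array. Many calls were lost without either day 4 array, and few without either day 2 array.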
